A study of Mus musculus with 8 samples.

Results

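The zinc finger genes whose array name is Zfp followed by a number, Zfp932 among them, were followed in the prefrontal cortex (PFC) of a mouse model of Fabry disease. Members were chosen by name and then by the scanner's flag for spots well above background, which had to be set on each of the 4 arrays of either genotype. Of 360 such genes with 560 probes on the array, 342 genes with 505 probes passed, out of 23638 genes and 34339 probes tested in all. Of these Zfp probes, 459 were well above background on all 8 arrays, 46 passed through the wildtype arrays alone and 0 through the α-Gal A(-/0) arrays alone. A probe of the second kind is dim in part of the α-Gal A(-/0) mice by construction. None of the tested Zfp probes sat at the threshold itself, since the fewest arrays with a flag was 5. Of the 55 Zfp probes left out, 31 were well above background on no array, 8 on at least 4 arrays, and 2 had an uneven spot.

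Fabry disease follows from loss of α-galactosidase A, a lysosomal enzyme encoded by Gla on the X chromosome. The 4 α-Gal A(-/0) mice and the 4 wildtype mice were males aged 20 to 24 weeks, with no treatment named in the labels. The labels give C57BL/6J as the strain of both genotypes, and the study's methods give it for the wildtype mice and C57BL/6 as the background of the α-Gal A(-/0) mice. Each mouse gave 1 one-colour Agilent array, so the number of arrays limits the precision of every value. Per the study's methods, the genotypes were bred as separate inbred colonies, so genotype and colony cannot be told apart in any value below. For RT-qPCR the study used other mice, with the α-Gal A(-/0) mice backcrossed to wildtype, and reported Zfp932 as lower there too. Those measurements are not part of the arrays. The single Gla probe averaged 17.09 over the wildtype mice and 17.15 over the α-Gal A(-/0) mice on the log2 scale (limma adjusted p = 0.707). The methods do not say where Gla is disrupted relative to that probe, and it therefore did not check the labels.

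Most Zfp genes encode C2H2 zinc finger proteins, in which strings of short zinc-binding fingers read DNA and a conserved linker joins each finger to the next. Many carry a KRAB box, which recruits Trim28 (KAP1) and, through it, the histone methyltransferase Setdb1, and such proteins are best known for silencing retroelements. The family grew by tandem duplication, so many members lie side by side in chromosomal clusters and resemble one another in sequence. Some Zfp names cover other proteins, such as the Zfp36 group, which binds AU-rich elements of mRNAs.

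Probes on this array are 60 bases long, and their sequences show how close the paralogs are. The called probe of Zfp936 and the more 5′ of the called Zfp386 probes both run through the linker between fingers, which stands in capitals as GGAGAGAAACCT. The other called Zfp386 probe and the Zfp433 probe have no linker and are shown for contrast.
Zfp936, chr7:50445732-50445791: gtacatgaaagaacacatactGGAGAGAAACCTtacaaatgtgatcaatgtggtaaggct
Zfp386, chr12:117298639-117298698: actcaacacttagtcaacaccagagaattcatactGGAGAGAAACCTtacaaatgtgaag
Zfp386, chr12:117298954-117299013: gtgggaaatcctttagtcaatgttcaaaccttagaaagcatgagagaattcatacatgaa
Zfp433, chr10:81184363-81184422: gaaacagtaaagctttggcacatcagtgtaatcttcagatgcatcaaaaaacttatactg

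All 4 lie on the plus strand of the mm9 build, written 5′ to 3′. The 3 Zfp932 probes lie on the same strand of chromosome 5, and the first 30 bases of each are given because the gene's readout differed between them.
Zfp932, chr5:110432776-110432835, first 30 bases: gcaattttgggggttttgctacttaagtga
Zfp932, chr5:110436368-110436427, first 30 bases: ctctgaagaaatgttcatgtgtcctggtac
Zfp932, chr5:110439205-110439264, first 30 bases: agtgtggcctttctggcatagatgtggtgt

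The exon or UTR in which each probe lies was not analysed here. A probe that encoded the linker in 1 of its reading frames, by any codons, was found for 23 of the 560 Zfp probes (4.11%) and for 69 of all 55681 probes (0.124%). Of the 22 such Zfp probes tested, 16 had a log2 fold change below 0, as had 67.72% of all tested Zfp probes. Their median was -0.11, against -0.05 over the 483 without the linker. The Zfp936 and the 5′ Zfp386 probe share at least 20 bases in a row with each other and with probes of other zinc finger genes, such as Zfp534, Zfp933 and Zfp941. Their values are therefore uncertain as measures of 1 gene. In all, 31 tested Zfp probes shared such a run with a probe of another gene name. The Zfp936 and 5′ Zfp386 probes were the only 2 called among them, where 1.39% of all tested Zfp probes were called.

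Differences are given as log2 fold changes, α-Gal A(-/0) minus wildtype, after quantile normalization. A probe was called where limma gave a p under 0.05 after Benjamini-Hochberg adjustment across the 34339 probes. Of the 505 Zfp probes, 7 were called (1.39%), all of them lower in α-Gal A(-/0) mice. Over all tested probes 304 were called (0.885%), 199 of them lower (0.58%). Since Zfp932 was known to differ when the gene group was chosen, the Zfp count holds at least 1 call that the choice brought in. By the study's own criterion, an unadjusted p no higher than 0.01 with a 1.2-fold difference or more, 23 Zfp probes passed (4.55%), 20 lower and 3 higher, against 3.46% of all probes. The genotypes did not overlap at 45 Zfp probes (8.91%), with the α-Gal A(-/0) mice below at 32 and above at 13, against 7.95% of all probes. By these measures the share of Zfp probes that differed was near that of the array as a whole. Of the 459 probes with the flag on every array, 6 were called, and the seventh call is the Zfp488 probe, which passed through the wildtype arrays alone.

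Zfp932 is a KRAB zinc finger gene known for repressing endogenous retroviruses. At the probe of its RefSeq transcript NM_145563 the wildtype mice read 12.01, 12.02, 11.997 and 12.06, and the α-Gal A(-/0) mice read 10.55, 10.52, 10.72 and 10.73. The log2 fold change was -1.39 (SE 0.0659, n = 4 per genotype), or 2.63-fold lower. The genotypes lay far apart, and the wildtype mice spanned less than the α-Gal A(-/0) mice. This gene was singled out for that difference, so its values are a description with no test.

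The more 5′ Zfp932 probes moved the same way by less. At the probe of AK009062 the wildtype mice read 9.99, 10.13, 10.06 and 10.23 and the α-Gal A(-/0) mice 9.77, 9.44, 9.88 and 9.61, a log2 fold change of -0.43 (SE 0.104). At the probe of ENSMUST00000142180 the wildtype mice read 6.83, 7.59, 6.98 and 7.36 and the α-Gal A(-/0) mice 6.92, 6.41, 6.66 and 6.51, a log2 fold change of -0.56 (SE 0.183). The genotypes did not overlap at the first of these and overlapped at the second.

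Beyond the NM_145563 probe, features of the array that carry no gene name continued the pattern on the same strand. A probe 0.8 kb further 3′ had a log2 fold change of -1.24 (SE 0.158, adjusted p = 0.0101) and one at 1.7 kb had -0.92 (SE 0.0992, adjusted p = 0.00391). Both fall within 1 transcribed interval that also spans the NM_145563 probe, so they are not independent of Zfp932.

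Zfp605, the only other Zfp gene within 500 kb of Zfp932, was not called at any of its 4 tested probes. Their log2 fold changes were -0.13, -0.20, -0.31 and -0.62, and the last of these (adjusted p = 0.182) came from a probe that only 3 of the α-Gal A(-/0) arrays held well above background.

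**Figure D1:**
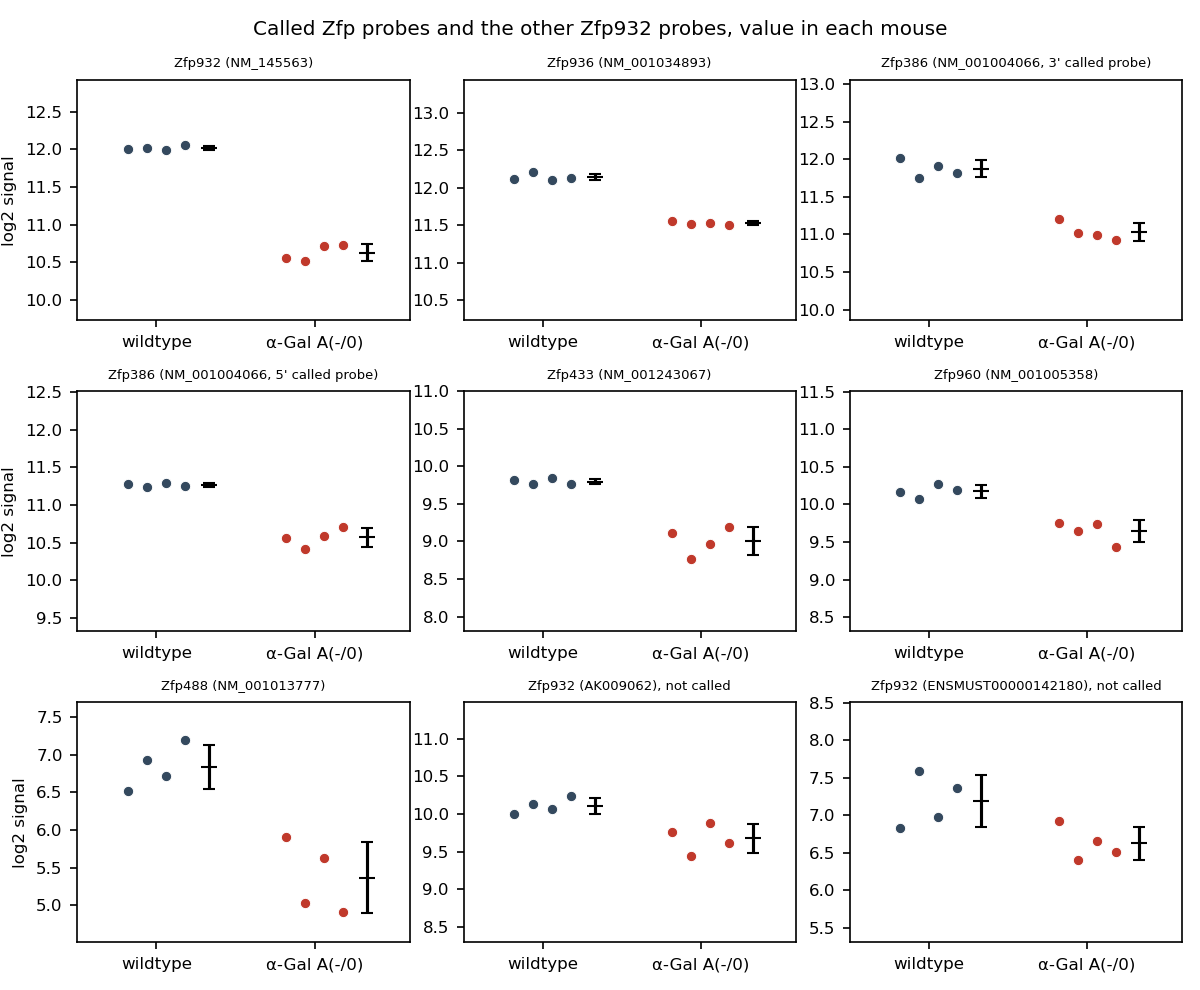
Log2 signal in each mouse (points; y axis) for the 7 called Zfp probes and the other Zfp932 probes, with wildtype mice in dark blue and α-Gal A(-/0) mice in red. Bars give the mean ± SD of 4 mice. Every panel spans the same range of log2 units, and only the ENSMUST00000142180 probe of Zfp932 shows overlapping genotypes.

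Zfp386 encodes a KRAB zinc finger protein also known as Kid3, and it was the only Zfp gene called at more than 1 probe. At its most 3′ probe the wildtype mice read 12.02, 11.75, 11.91 and 11.82 and the α-Gal A(-/0) mice 11.20, 11.02, 10.99 and 10.93. The log2 fold change there was -0.84 (SE 0.084, adjusted p = 0.00269). At the linker probe the wildtype mice read 11.28, 11.24, 11.29 and 11.25 and the α-Gal A(-/0) mice 10.57, 10.41, 10.59 and 10.71, for a log2 fold change of -0.70 (SE 0.0708, adjusted p = 0.00297). The most 5′ probe had -0.40 (SE 0.0953, adjusted p = 0.141), and the genotypes did not overlap at any of the 3.

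Zfp936 lies in a cluster of 5 Zfp genes on chromosome 7. Its wildtype mice read 12.12, 12.21, 12.11 and 12.13 and its α-Gal A(-/0) mice 11.56, 11.51, 11.53 and 11.50. The SD was 0.0441 among the wildtype mice and 0.0279 among the others, and the log2 fold change of -0.61 (SE 0.0503, adjusted p = 0.000818) was far larger. A second Zfp936 probe was well above background on 1 array of each genotype and was not tested.

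Zfp433 is the first gene of a 4-gene cluster on chromosome 10. The wildtype mice read 9.82, 9.76, 9.84 and 9.77 at its probe and the α-Gal A(-/0) mice 9.11, 8.76, 8.97 and 9.19. The log2 fold change was -0.79 (SE 0.0945, adjusted p = 0.0072). Fitted with slide row as a block, the difference was -0.74 (adjusted p = 0.0545) and no longer called, which also held for Zfp960 and Zfp488 (adjusted p = 0.17 and 0.172) but not for Zfp386, Zfp932 and Zfp936. Its neighbour Zfp781 was not called at either probe, with log2 fold changes of -0.39 (adjusted p = 0.0989) and -0.26, although the genotypes did not overlap at either.

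Zfp960 on chromosome 17 is isolated from the Zfp clusters of that chromosome. The wildtype mice read 10.16, 10.07, 10.27 and 10.19 and the α-Gal A(-/0) mice 9.76, 9.65, 9.75 and 9.44, for a log2 fold change of -0.53 (SE 0.0857, adjusted p = 0.0354). This call was near the threshold and was lost on leaving out any 1 array other than the fourth α-Gal A(-/0) array.

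Zfp488, a regulator of oligodendrocyte differentiation that acts with Olig2, was called at 1 of its probes. There the wildtype mice read 6.51, 6.94, 6.72 and 7.20 and the α-Gal A(-/0) mice 5.90, 5.03, 5.63 and 4.90, for a log2 fold change of -1.48 (SE 0.244, adjusted p = 0.0368). The probe entered the test only through the wildtype arrays, where it is bright, as 3 α-Gal A(-/0) arrays held it well above background. Its low value in α-Gal A(-/0) mice is thus tied to how probes were selected, and this call supports no statement on the Zfp genes as a group. Its call was lost on leaving out any 1 array except the first α-Gal A(-/0) array. A second probe that starts 57 bases away went the other way, at 0.19 (SE 0.0993, adjusted p = 0.491), with the α-Gal A(-/0) mice between 10.29 and 10.67 and the wildtype mice between 10.06 and 10.29.

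Several called Zfp genes stood near other called transcripts. Around Zfp932, 5 of 50 other tested probes within 1 Mb were called (10%), 4 of them lower, where 0.885% of all tested probes were called. The lower ones include the probes at 0.8 and 1.7 kb described above, which are not independent of Zfp932 and raise this share. Plcxd1, 93.6 kb from the NM_145563 probe, was higher instead, with a log2 fold change of 0.67 (adjusted p = 0.0354). Around Zfp386, 5 of 27 probes were called (18.5%), all lower. All came from the transcript 2310058N22Rik (-1.57, adjusted p = 1.48e-05) and an unnamed interval beside it, 320.4 to 339.2 kb away. The probes of that interval lie side by side, so this share counts 1 locus several times. The dimmest called one averaged 4.86 in α-Gal A(-/0) mice, and such a probe can enter the test through the wildtype arrays alone. Around Zfp433, 7 of 122 were called (5.74%), of which Gm4924 and its surrounding interval were higher by 1.34 to 1.54.

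Around Zfp488, 10 of 43 probes were called (23.3%), 8 of them lower. These included the Z-disc gene Ldb3 (-2.14), the predicted gene Gm3219 (-3.28), and Sncg, the γ-synuclein gene (-0.52). The kinase gene Mapk8 was called higher at 1 probe (0.47), but its other probes had -0.51 and -0.20 and were not called. Gm3219 was dim in the α-Gal A(-/0) mice, at 2.55 to 4.57, and Syt15 (mean 4.72) and Ptpn20 (mean 4.93) were also dim there. Probes this dim can enter the test through the wildtype arrays alone, so the count of lower probes shares the limit given for Zfp488. Around Zfp936 0 of 46 probes and around Zfp960 0 of 35 were called by limma, with 5 and 4 at an unadjusted p under 0.05. Among all 261 called genes with a position, 167 (64.0%) had another called gene within 1 Mb, and among the 6 called Zfp genes 4 had one. All these values come from the contrast between 2 colonies, so what the position of a gene adds to its value was not tested.

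**Figure D2:**
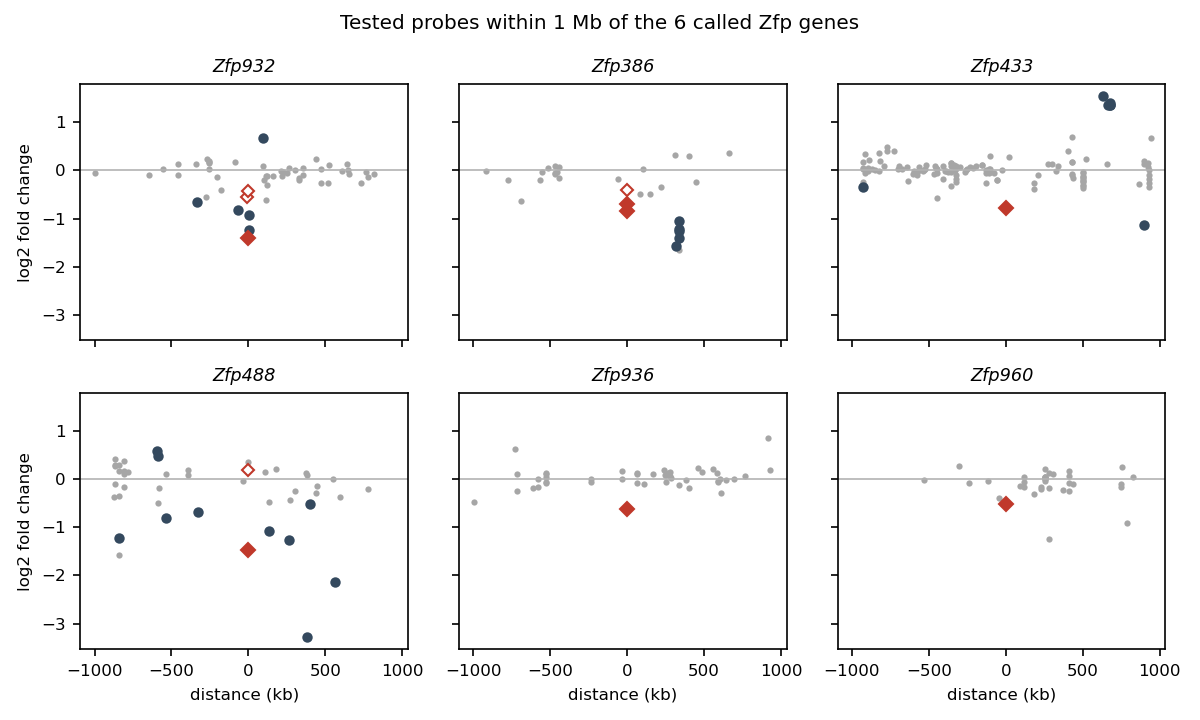
Log2 fold change (y axis; α-Gal A(-/0) minus wildtype) of every tested probe within 1 Mb of the 6 called Zfp genes, against distance from the called probe in kb (x axis). Diamonds are the Zfp gene's own probes, filled where called; dark points are other called probes and grey points the rest. Zfp936 and Zfp960 have no other called probe in the window.

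Chromosomal position divided the Zfp genes into 3 classes. Genes with neighbours within 500 kb, in runs of at least 3 Zfp genes on the array, were counted as clustered, runs of 2 as paired and the rest as isolated. Of the tested genes, 197 were clustered, 26 paired and 118 isolated, and 1 had no placed position. A single probe, the brightest, stood for each gene. The median log2 fold change was -0.05 for the clustered genes, with 136 of 197 below 0 (69.04%), and -0.05 for the isolated genes, with 80 of 118 below 0 (67.8%). For the paired genes it was -0.05, with 18 of 26 below 0. Over all 23638 genes it was -0.02, with 57.37% below 0. No difference between clustered and isolated genes was visible in these medians, which lay closer together than the SD between mice of either median (0.051 and 0.0445). Both medians come from the same mice, so these SDs do not measure the spread of the difference between the classes.

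Calls were also few in each class. Of the clustered genes 2 were called (1.02%), of the isolated genes 2 (1.69%) and of the paired genes 1, Zfp932, against 0.935% of all genes by their brightest probe. Zfp488 does not count here, as its brighter probe was not called. By the study's criterion 7 clustered genes passed (3.55%) and 4 isolated genes (3.39%). The genotypes did not overlap at 14 clustered genes (7.11%) and at 14 isolated genes (11.9%), with 8.43% over all genes.

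The shift below 0 was deepest in 1 mouse. As the median deviation of a gene from its mean over the 8 mice, the clustered genes stood at -0.13 in α-Gal A(-/0) replicate 2 and at 0.03, -0.01 and -0.01 in the other α-Gal A(-/0) mice. The wildtype mice stood between -0.01 and 0.04. The isolated genes were lowest in the same mouse, with -0.11 there and values from -0.01 to 0.04 in all others. That array also had the fewest probes well above background, 29943 against 35218 to 38240 on the other 7. Without it, the median over the Zfp probes was -0.03 with 57.71% below 0, against 0.0016 and 49.49% over all probes. With it, the values were -0.05 and 67.72% for the Zfp probes and -0.02 and 58.05% for all probes. Within the first row of the slide, which holds 3 wildtype arrays and 1 α-Gal A(-/0) array, the Zfp median was -0.0024, and within the second row, which holds the other 4 arrays, it was -0.07.

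**Figure D3:**
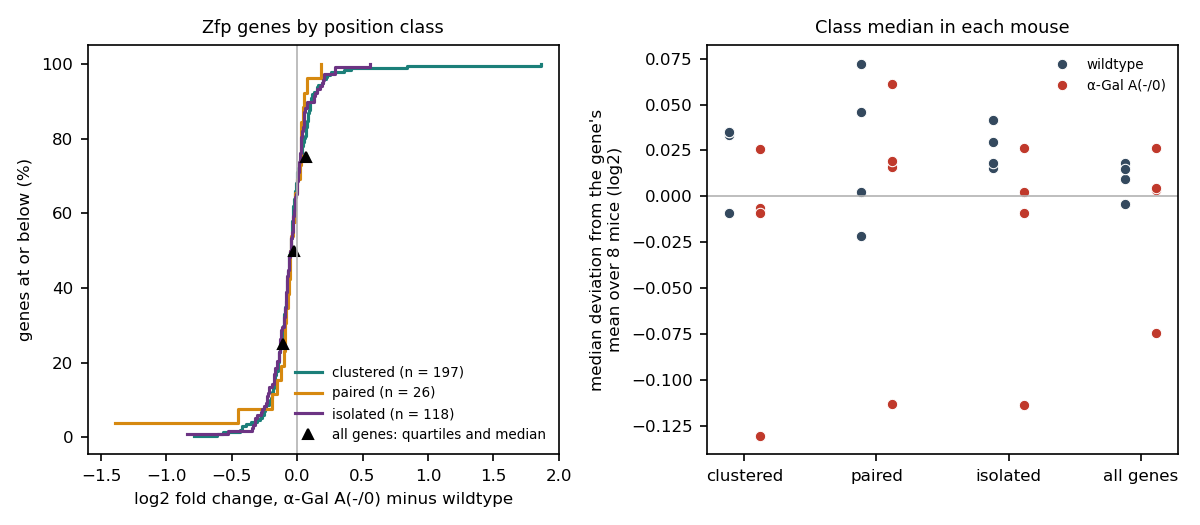
Left, cumulative share of Zfp genes (y axis, %) at or below a log2 fold change (x axis) for the clustered, paired and isolated classes, with triangles at the quartiles and median of all genes. Right, median deviation of each class from the gene means (y axis, log2) in each mouse. The clustered and isolated curves lie on one another, and α-Gal A(-/0) replicate 2 is the lowest point in every class.

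The clusters themselves were 31 on 14 chromosomes, with 9 of them and 70 tested genes on chromosome 7. The median log2 fold change was below 0 in 25 clusters. The largest, on chromosome 13, held 21 tested genes from Zfp712 to Zfp273, with a median of -0.11 and 18 genes below 0, but none was called. Zfp708, which targets a retroviral element, lies in it and had -0.57 (adjusted p = 0.231) and -0.12 at its probes. Another member, Zfp953, had -0.44 (adjusted p = 0.326) at a probe that passed the filter through the wildtype arrays alone.

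On chromosome 17, the 18 tested genes from Zfp160 to Zfp13 had a median of -0.07, with 13 below 0. The lowest p in it belonged to Zfp945 (-0.41, adjusted p = 0.156) and Zfp760 (-0.36, adjusted p = 0.177). The 3 Zfp945 probes ran from -0.41 to -0.016, and the one with the lowest p passed the filter through the wildtype arrays alone. A further cluster of that chromosome, with 13 tested genes from Zfp871 to Zfp414, had a median above 0, at 0.06. Within it Zfp955a had 0.20 and Zfp563 0.22, and Zfp101 had -0.25. In the 15-gene cluster of chromosome 7 from Zfp84 to Zfp146 the median was -0.06 and no gene passed the study's criterion.

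As median deviations from the gene means, the mice of the genotypes did not overlap in 2 of the 31 clusters. Of all genes, taken singly by brightest probe, 8.43% had genotypes that did not overlap. In the Zfp936 cluster the α-Gal A(-/0) mice lay between -0.31 and -0.02 and the wildtype mice between 0.05 and 0.17. Zfp936 itself is part of that median. In the 3-gene cluster of Zfp113, Zfp157 and Zfp68 on chromosome 5 the α-Gal A(-/0) mice lay between -0.25 and 0.0035. The wildtype mice there lay between 0.0081 and 0.10, and none of these genes was called. The called genes Zfp433 and Zfp936 were the only ones called in any cluster by brightest probe, and their cluster neighbours were not called.

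**Figure D4:**
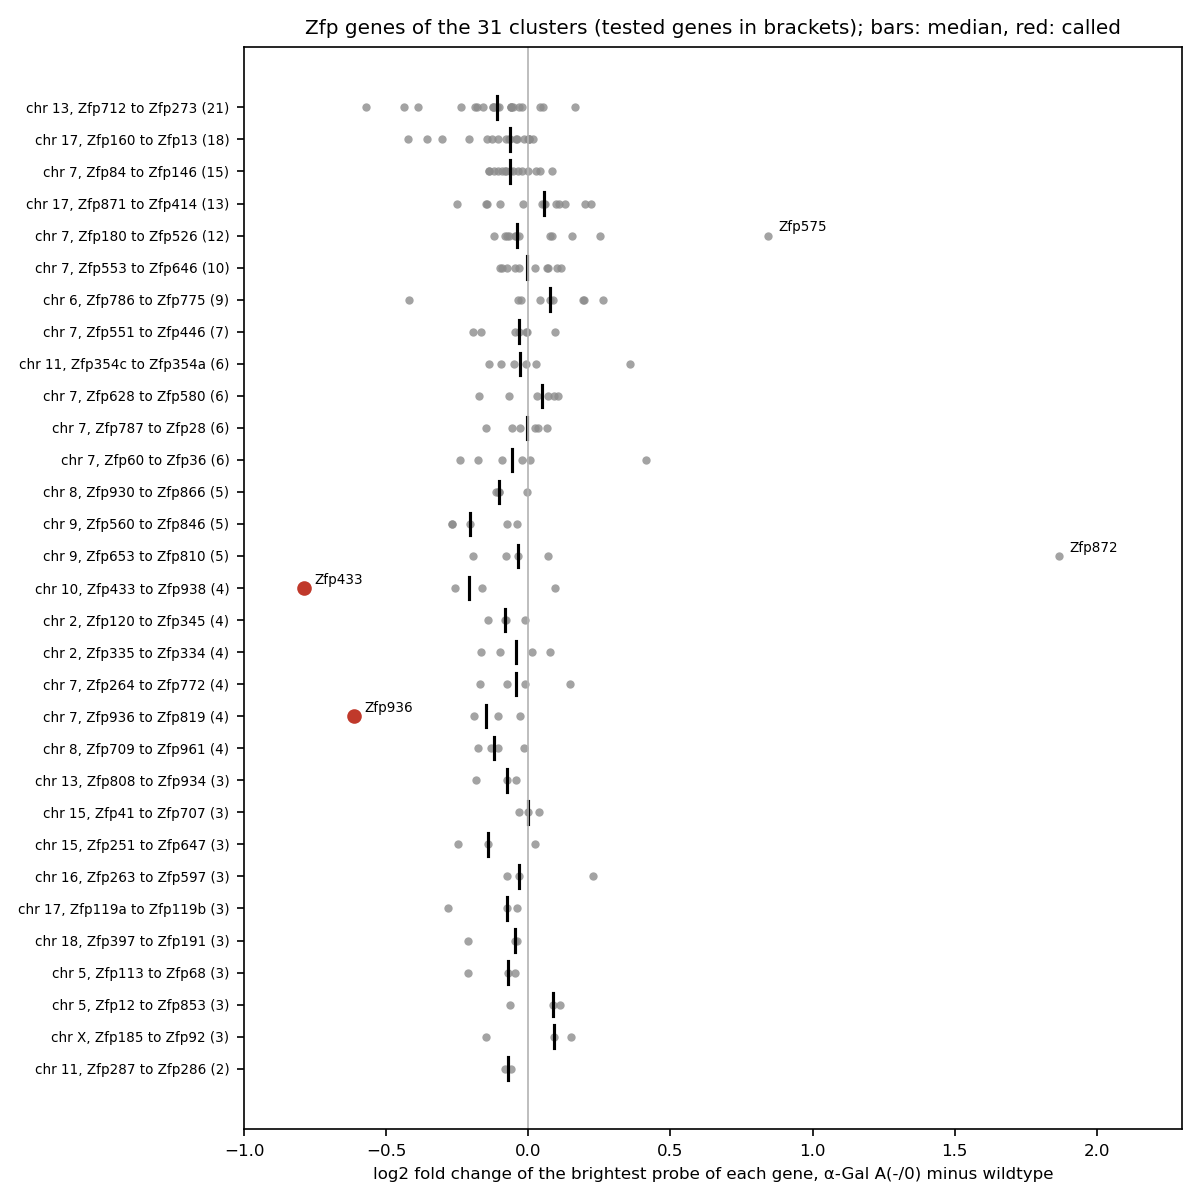
Log2 fold change (x axis) of the brightest probe of each tested gene in the 31 clusters (rows, ordered by number of tested genes, with the chromosome and the first and last member). Black bars are cluster medians and red points the called genes Zfp433 and Zfp936; Zfp575 and Zfp872 stand to the right because of 1 mouse.

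No Zfp gene was called higher by limma, and 16 Zfp probes were higher at an unadjusted p under 0.05. The lowest p among probes above 0 belonged to Zfp607, now named Zfp607a, in a chromosome 7 cluster. Its α-Gal A(-/0) mice read 6.89, 6.77, 6.56 and 6.72 and its wildtype mice 6.26, 6.43, 6.35 and 6.24, for a log2 fold change of 0.41 (SE 0.0838, adjusted p = 0.084). Of the remaining probes below 0, Zfp783 came closest, with 9.67, 9.45, 9.62 and 9.76 in α-Gal A(-/0) mice against wildtype values of 10.16, 9.97, 10.03 and 10.04. Its log2 fold change was -0.42 (SE 0.0804, adjusted p = 0.0691). Zfp800 (-0.28, adjusted p = 0.113) and Zfp473 (-0.34, adjusted p = 0.106) also had genotypes that did not overlap, as did 7.95% of all probes. The Zfp473 probe passed the filter through the wildtype arrays alone, so its lower value is tied to how probes were selected. Zfp652os, a transcript named for its position opposite Zfp652, had -0.45 (adjusted p = 0.156).

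Probes of 1 gene did not always move together. For the 135 Zfp genes with several tested probes, the median difference between the highest and lowest log2 fold change was 0.0995, and 56 genes had probes on both sides of 0. Genes with exactly 2 tested probes had a median difference of 0.0925 for the 113 Zfp genes and 0.0931 for all 4781 such genes. The difference exceeded 0.5 in 9 Zfp genes, led by Zfp488 (1.67) and Zfp932 (0.96).

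Zfp81 illustrates such disagreement where the spread is small. At its most 5′ probe on the minus strand the α-Gal A(-/0) mice read 7.25, 7.19, 7.55 and 7.50 and the wildtype mice 7.76, 7.80, 7.79 and 7.74, for a log2 fold change of -0.40 (SE 0.0901). At a probe 684 bases further 3′ they read 8.53, 8.31, 8.55 and 8.55 against 8.11, 8.09, 8.15 and 8.20, for 0.35 (SE 0.0715). Neither was called (adjusted p = 0.124 and 0.0868), although the genotypes did not overlap at either and the signs were opposite. Zfp467, known as a regulator of adipocyte and osteoblast fate, had 0.42, 0.26, 0.18 and -0.30 at its 4 probes, none of them called. Zfp827 had -0.49 and 0.29, at probes that passed the filter through the wildtype arrays alone, and Zfp846 had 0.48 and -0.04.

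**Figure D5:**
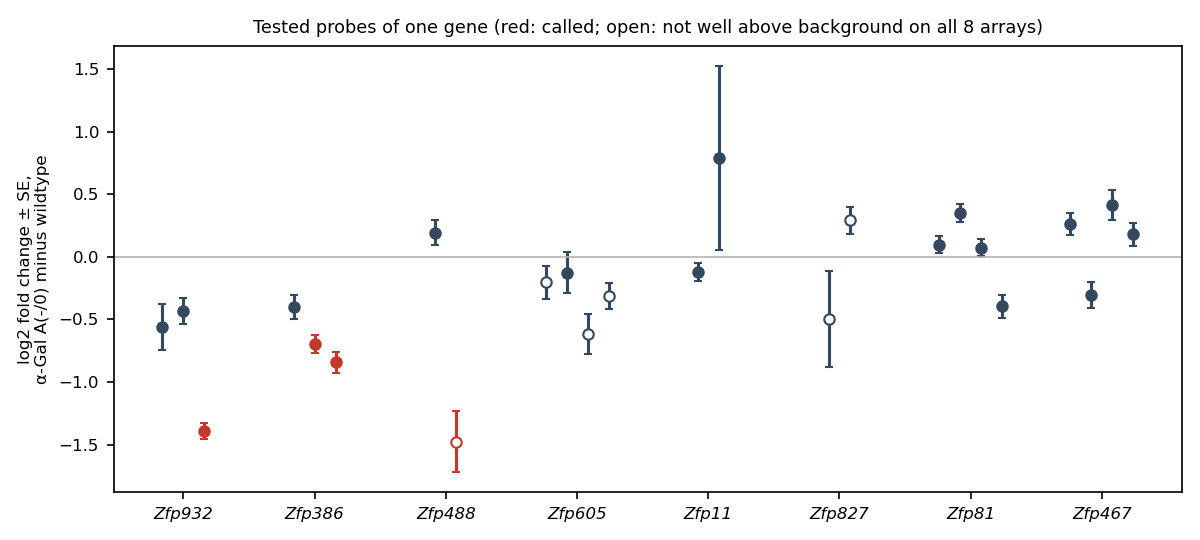
Log2 fold change ± SE (y axis; α-Gal A(-/0) minus wildtype) of every tested probe of 8 Zfp genes, ordered by position within each gene. Red marks called probes and open points probes that were not well above background on all 8 arrays. Zfp488, Zfp11, Zfp827, Zfp81 and Zfp467 have probes on both sides of 0.

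Zfp genes with a known role were mostly not called. Among 6 imprinting and retroelement repressors only Zfp932 passed the threshold, and it was known to differ when the gene group was chosen. By brightest probe, 0.935% of all genes were called. Zfp57 and Zfp445, which protect imprinted methylation, had 0.07 and -0.06 at their brightest probes. Zfp568, which represses a placental promoter of Igf2, had -0.06, and Zfp809, which silences murine leukaemia virus, had -0.08. Of 9 tested genes of neural development none was called and 8 were below 0. The one with the lowest p was Zfp536, a repressor of neuronal differentiation, whose brighter probe had -0.17 (adjusted p = 0.379). The mRNA-binding genes Zfp36l1 and Zfp36l2 had -0.12 and -0.10 and were not called, and Zfp36 was not well above background often enough to be tested. None of 4 tested pluripotency genes was called.

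Partners of KRAB proteins were examined in the same fit. Over all genes 0.935% were called by brightest probe. Of 27 tested partner genes by brightest probe, 1 was called, Hdac1, the histone deacetylase of several corepressor complexes. Its 3 probes had log2 fold changes of -0.61 (adjusted p = 0.00348), -1.36 (adjusted p = 0.0098) and -1.78 (adjusted p = 0.000192). A second probe of Rbbp4, a histone-binding subunit of such complexes, had -1.05 (adjusted p = 0.00352), but its brightest probe had 0.04. The study had already listed Hdac1 and Rbbp4 as lower, so both were known to differ when the list was made. Its positions place the 2 genes within 1 Mb of each other on the same chromosome, and what position adds was not tested. Trim28 had 0.12 (adjusted p = 0.595) and Setdb1 -0.08 (adjusted p = 0.832). Of 105 tested genes in other zinc finger families, 2 were called and both were higher. One was the immediate early gene Egr2 (1.12, adjusted p = 0.024) and the other Zbtb8os (0.59, adjusted p = 0.0254), which is named for its position opposite Zbtb8 genes. The median over these families was -0.06, with 74 of 105 below 0.

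Cell makeup was checked with marker genes, and in bulk tissue fewer cells of a type and less RNA per cell cannot be told apart. All 6 markers of cortical excitatory neurons were tested, all below 0 (median -0.18) and none called, with overlapping sums of 36540 to 41080 and 40320 to 46920. The summed linear signal of 5 microglial markers did not overlap between genotypes. It was 26320 to 27780 in α-Gal A(-/0) mice and 33690 to 38520 in wildtype mice. Csf1r, the brightest of these markers, weighs most in that sum and was called at 1 probe (-0.44, adjusted p = 0.0119). Its other probes, at -0.37 and 0.59, were not called, and the second rests on α-Gal A(-/0) replicate 2, at 12.12. Genotypes overlapped at the brightest probes of P2ry12 and Tmem119. The sums of 5 astrocyte markers did not overlap either, at 30650 to 34250 and 35030 to 36540. All 5 were below 0 (median -0.18) without a call, and the genotypes overlapped at the brightest probes of Slc1a3, Aldh1l1 and Gfap. By brightest probe, 8.43% of all genes had genotypes that did not overlap. All 7 striatal markers were above 0 (median 0.62), with overlapping sums of 62900 to 165300 and 49280 to 114300. Of 4 choroid plexus markers, 3 were tested and 1 was below 0, and Ttr was not tested. The part of cell makeup in the Zfp values was not tested.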

How the data were processed

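PFC RNA of 4 α-Gal A(-/0) and 4 wildtype mice was hybridised to Agilent mouse arrays on 1 slide in 1 scan. The deposited files are scanner output of Agilent Feature Extraction 10.7.3.1 per the file headers, with mm9 positions. The authors' processed signal is an intensity with background subtracted. It was converted to log2 and quantile normalized as in the methods, and spots of 1 probe were averaged. Control probes and uneven spots were left out. Probes flagged well above background on each array of either genotype were tested with lmFit and eBayes (limma 3.58.1, R 4.3.3) with Benjamini-Hochberg adjustment, in place of the methods' test. The pipeline was tested on simulated data. Positions, gene names and probe sequences come from the files, and 340 of 342 gene names are current symbols. The deposited table of log2 values was not used, because its columns do not follow their sample names. Promoter sequences were not used. The oligodendrocyte marker list is not reported here.

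Members and lists were chosen with earlier results of these data known. Named genes were Zfp932 and its neighbour, all called genes, the 5 lowest p in each direction among the rest, up to 4 genes of the 4 largest clusters, the 5 genes whose probes differ most, list members at p under 0.05, and called list genes. Zfp575, Zfp872 and Zfp652os, and the neighbouring transcripts, were added after their values were seen. The replicate numbers do not pair the mice by the labels. Alternatives were a shift to the 75th percentile, normexp with an offset of 50, other filters, other variance models, blocks for replicate number or slide row, each array left out, cluster limits of 200 kb or 1 Mb or of 2 genes, and the mean over probes. Fits within each slide row were chosen after seeing the data.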

Additional observations from a re-analysis of the deposited data

Results flagged for a closer look

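In groups of 4 mice, a value was singled out when its gap to the nearest other mouse was above Dixon's critical share of the range of the group. Chance singles out about 1 in 20 such groups, and here 9 of 94 were. However, some of these genes were named because their probes differ most, and Zfp575 and Zfp872 were added after their values were seen. The share singled out can therefore not be set against that of chance. Of the 9 values singled out, 6 came from α-Gal A(-/0) replicate 2, the array with the fewest probes well above background. Zfp11 at its probe that starts at 130162355 read 9.54 in that mouse and 6.08 to 6.17 in the other α-Gal A(-/0) mice. Zfp575 read 10.35 there and 6.08 to 6.18 in the others, and Zfp872 read 10.38 there and 5.22 to 5.61 in the others. These were the only Zfp probes at which 1 mouse lay at least 3 log2 units above the next highest of all 8. Over all tested probes that mouse had 163 such values and the other 7 mice 2 in all. It was the lowest of the α-Gal A(-/0) mice at Zfp708 (6.28), at the Zfp81 probe with a positive difference (8.31) and at Zfp827 (3.21).

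Zfp473 read 5.79 in α-Gal A(-/0) replicate 1, above the 5.59 to 5.62 of the others. The uncalled Zfp488 probe read 10.06 in wildtype replicate 1, below the 10.26 to 10.29 of the others. The median deviation of the clustered genes was -0.0093 in wildtype replicate 2 and 0.0334 to 0.0353 in the other wildtype mice.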

How the results depend on the processing

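Of the 7 called Zfp probes, 7 were called again after the 75th percentile shift and after normexp correction. Leaving out saturated probes removed none of the 34339 tested probes, so that fit repeated the main one and checked nothing. With an intensity trend and robust variances 9 were called, with Zfp652os and Zfp783 added. Without a filter on dim probes 6 were called, 5 of them shared, and the sixth was a dim Zfp951 probe that was higher in α-Gal A(-/0) mice. The methods' test with Benjamini-Hochberg adjustment called 3 (Zfp386, Zfp932 and Zfp936). Leaving out 1 array gave 5 to 7 calls, 17 to 26 probes past the study's criterion, and 2 to 3 clustered and 1 to 2 isolated genes called. The medians then ranged from -0.0661 to -0.0247 for clustered genes and from -0.0747 to -0.0316 for isolated genes, and the values nearest 0 were those without α-Gal A(-/0) replicate 2. Without that array Zfp81 was called higher, and without α-Gal A(-/0) replicate 1 Zfp605 was called lower.

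With the slide row as a block 4 Zfp probes were called, and 1 clustered and 1 isolated gene. In the first slide row alone 1 was called (Zfp932), with 11 past the criterion, and the clustered median was 0.0085. In the second row 0 were called by limma, with 5 past the criterion. In both rows 0 clustered and 0 isolated genes were called. Each row holds 1 array of a genotype, which is assumed to vary like the rest. One isolated gene was called without the filter and 1 under the methods' test, which called 1 clustered gene. Joining clusters within 200 kb left 1 clustered gene called.

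The replicate numbers did not pair the mice (correlations of deviations -0.0894, 0.1389, 0.0142 and 0.148). With the replicate block 4 probes were called, the Zfp932, Zfp936 and Zfp386 ones, with 1 clustered and 1 isolated gene. The Zfp11 probe with a positive difference ranged from -0.0624 (without α-Gal A(-/0) replicate 2) to 1.0909 with 1 array left out, and was -0.0947 in the first slide row. Zfp575 ranged likewise from -0.2092 to 1.2162 and was -0.2154 in that row, where an uncalled Zfp81 probe was -0.0091. The causes were not tested. Brightness limits Zfp488, whose call was also lost without the filter.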
